A study of Mus musculus with 6 samples.

Results

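Globin genes and the factors that switch them were followed in large erythroblasts of the bone marrow from mice lacking the miR-144/451 locus. The set holds the adult globins Hba-a1, Hbb-b1 and Hbb-b2, the embryonic globins Hba-x, Hbb-y and Hbb-bh1, the alpha-globin chaperone Ahsp, and the regulators Bcl11a, Sox6 and Myb. Every probe set whose platform annotation names 1 of these 10 genes was taken, alone or together with other globin genes. This gave 28 of the 45037 probe sets tested, for 9 genes; Ahsp was not analysed here. Of the 28, 24 were annotated to 1 gene and 4 to several: 3 to Hba-a1 with Hba-a2, and 1 to Hbb-b1, Hbb-b2, Hbb-bs and Hbb-bt. The knockout (KO) group was 3 mice with the genotype miR-144/451 knockout, with the title numbers 493, 548 and 551. The wild-type (WT) group was 3 mice, numbered 497, 504 and 550. In both groups freshly isolated bone marrow cells were stained for Ter119, an erythroid surface antigen, and CD71, the transferrin receptor. Double-positive cells of high forward scatter, that is large cells, were sorted. Their total RNA went onto Affymetrix Mouse Genome 430 2.0 arrays, 1 per sample, on which many short probes together form a probe set for a transcript. The labels give no age, strain or litter. Nor do they say in which cells the locus was deleted, so the KO group is known only as a genotype, and the separate mice are the replicates.

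Haemoglobin is a tetramer of alpha-like and beta-like chains, each holding a haem. Mouse red cells first make the embryonic chains zeta (Hba-x), epsilon-y (Hbb-y) and beta-h1 (Hbb-bh1) in the yolk sac, and later cells of the fetal liver and bone marrow make the adult chains instead. BCL11A and SOX6 silence the embryonic beta-like genes in adult mouse erythroid cells, and MYB keeps erythroid progenitors dividing and is turned down as they mature. The alpha-like genes and Bcl11a lie on chromosome 11, which also carries the deleted microRNA locus, the beta-like genes and Sox6 lie on chromosome 7, and Myb lies on chromosome 10.

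The deleted locus makes 2 microRNAs that are abundant in red cell precursors, shown here because they are what the KO mice lack. Their mature forms, from RefSeq on GRCm38.p6 (miR-144-3p at chr11:78073047-78073066 and miR-451a at chr11:78073186-78073207, both on the plus strand), have the seed, bases 2 to 8, in capitals:
miR-144-3p: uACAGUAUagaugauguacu
miR-451a: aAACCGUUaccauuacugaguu
Their own levels were not analysed here, and the genotype rests on the labels.

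The promoters of the globin genes are shown next, because embryonic and adult genes are set side by side below. For each, the 250 bases before the RefSeq start site on GRCm38.p6 are given in the gene's own direction. Capitals mark the motifs searched on both strands: CACCC, the core of the box bound by KLF1, GATAA, bound by GATA factors, CCAAT, the CCAAT box, TATAAA, the TATA box, and TGACCA, a motif bound by BCL11A in human cells. Hbb-y lies at chr7:103853208-103853457 on the minus strand, Hba-x at chr11:32276350-32276599 on the plus strand, Hba-a1 at chr11:32283422-32283671 on the plus strand, Hbb-bs at chr7:103827929-103828178 and Hbb-bt at chr7:103813924-103814173, both on the minus strand.
Hbb-y: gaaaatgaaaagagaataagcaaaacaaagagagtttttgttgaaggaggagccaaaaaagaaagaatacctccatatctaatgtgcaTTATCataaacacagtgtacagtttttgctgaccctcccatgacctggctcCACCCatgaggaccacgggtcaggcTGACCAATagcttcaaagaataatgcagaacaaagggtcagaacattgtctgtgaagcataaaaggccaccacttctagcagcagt
Hba-x: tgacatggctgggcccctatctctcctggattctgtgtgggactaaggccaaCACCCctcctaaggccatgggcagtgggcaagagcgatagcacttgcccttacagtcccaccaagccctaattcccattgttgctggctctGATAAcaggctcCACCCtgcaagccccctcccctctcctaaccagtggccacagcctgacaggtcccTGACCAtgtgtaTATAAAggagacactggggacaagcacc
Hba-a1: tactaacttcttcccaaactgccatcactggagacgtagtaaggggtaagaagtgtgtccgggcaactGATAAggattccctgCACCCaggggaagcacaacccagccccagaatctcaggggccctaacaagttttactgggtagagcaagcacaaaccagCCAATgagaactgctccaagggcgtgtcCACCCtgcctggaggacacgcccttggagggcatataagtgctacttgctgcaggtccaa
Hbb-bs: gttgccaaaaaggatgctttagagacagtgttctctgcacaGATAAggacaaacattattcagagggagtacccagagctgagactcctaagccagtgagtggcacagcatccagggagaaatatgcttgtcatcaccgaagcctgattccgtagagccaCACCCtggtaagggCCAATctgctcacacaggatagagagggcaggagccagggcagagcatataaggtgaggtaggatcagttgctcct
Hbb-bt: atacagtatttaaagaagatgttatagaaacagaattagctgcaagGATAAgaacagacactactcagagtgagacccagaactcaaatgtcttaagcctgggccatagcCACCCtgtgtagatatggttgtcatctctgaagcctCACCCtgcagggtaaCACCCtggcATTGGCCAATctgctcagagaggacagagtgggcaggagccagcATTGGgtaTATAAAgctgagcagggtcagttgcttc
TGACCA was found once in each of the Hbb-y and Hba-x windows and in none of Hba-a1, Hbb-bs and Hbb-bt. The window of Hbb-bh1 was not analysed here, and that of Hbb-bh2, another gene of the beta-globin cluster, held GATAA once and no other motif searched. In Hbb-y TGACCA shared letters with the CCAAT match, at -86 to -81 and -83 to -79 from the start site, while in Hba-x TGACCA lay at -40 to -35. Among 32851 RefSeq windows of the same length, 11.4% held TGACCA, 52.0% CACCC, 22.6% GATAA, 33.8% CCAAT and 12.4% TATAAA. All 5 windows printed held CACCC and GATAA. The window of Hba-a2 was identical to that of Hba-a1 over 247 of 247 aligned bases. A match describes the letters and not a bound site.

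The values are log2 intensities from the authors' normalization, and differences are KO minus WT, with limma's moderated standard error (SE) and a Benjamini-Hochberg adjusted p over all 45037 probe sets. A probe set was called where that p was under 0.05. Over the whole array 0.355% of probe sets were called, 0.184% higher and 0.171% lower in KO, and the median difference was -0.04. Levels are compared only within a probe set, since probe sets differ in how brightly they hybridise. The erythroid markers were bright, with 8 of 10 measured and a mean log2 intensity of 12.34 to 12.37 on KO arrays against 12.41 to 12.48 on WT arrays; 7 of the 8 had a lower KO mean. No marker of other cells lay in the dim range, here a mean under the 25th percentile of the arrays in both genotypes. This rule does not show presence, since muscle myoglobin (Mb), at 5.0 in KO and 5.12 in WT, was not dim either. Some markers were lower than that, such as Cd3g of T cells at 4.45 in KO and 4.67 in WT. Neutrophil markers (8 of 8 with a lower KO mean) averaged 11.56 to 11.95 in KO against 12.09 to 12.15 in WT, and B lineage markers (5 of 6 lower) 8.15 to 8.37 against 8.58 to 8.95. Early progenitor markers (5 of 6 lower) averaged 6.48 to 6.62 in KO against 6.69 to 6.93 in WT. Macrophage (7 of 7), T and NK (5 of 5) and eosinophil and mast cell markers (5 of 5) also had lower KO means. Megakaryocyte markers (3 of 5 lower) averaged 9.75 to 9.94 in KO against 9.84 to 9.98 in WT, which overlap. The control signal of actin, taken as its 3' minus its 5' probe set, was 1.82 to 1.86 in KO against 1.65 to 1.67 in WT, with no overlap. The same measure of Gapdh was 1.0 to 1.05 in KO against 1.03 to 1.09 in WT, which overlap. The part of these differences in the results below was not tested. In sorted bulk cells, fewer cells of a type and less RNA per cell cannot be told apart.

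None of the 28 probe sets was called by limma. An unadjusted p under 0.05 was reached by 11 of 28, of which 10 were lower and 1 higher in KO, where 19.8% of all probe sets had such a p, 12.2% lower and 7.61% higher. On 15 of the 28 every KO array lay below every WT array and on 1 every KO array lay above, against 15.3% and 10.7% of all probe sets. These counts rest on few genes, since several probe sets read the same transcript: the 3 of Hbb-y, 3 of Hbb-bh1, 3 of Myb, 3 of 4 of Sox6, 2 of Hbb-b2 and 1 of Hba-a1 with Hba-a2 make up the 15. The median difference of the 28 was -0.14.

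Embryonic beta-like globin signals were lower in KO and the embryonic alpha-like signal was higher, though none passed the test. Hbb-y had the lowest difference of the embryonic genes by its brightest probe set. It read 6.0, 5.58 and 6.33 on KO arrays 493, 548 and 551, against 6.90, 7.60 and 7.26 on WT arrays 497, 504 and 550. The highest KO array lay 0.57 below the lowest WT array, and KO 548 was the lowest of all. The medians of all probe sets on the KO arrays were 5.62 to 5.68, and on KO 548 the Hbb-y value lay below the median. The means were 5.97 ± 0.38 in KO and 7.25 ± 0.35 in WT (SD, n = 3 each), a difference of -1.28 ± 0.24 (SE; 95% interval -1.86 to -0.70), or 0.411 times the WT signal, with a limma adjusted p of 0.0833.

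The other probe sets of Hbb-y repeated the pattern across arrays. The second brightest differed by -1.24 ± 0.24 (limma adjusted p = 0.0833), with KO values of 5.77, 5.56 and 6.32 against WT values of 6.84, 7.44 and 7.10. The dimmest differed by -0.94 ± 0.20 (limma adjusted p = 0.0970), with 5.09, 4.93 and 5.65 in KO against 6.02, 6.28 and 6.18 in WT. On all 3 the order of the KO arrays was the same, 548 lowest and 551 highest, and WT 497 was the lowest WT array. The 2 brighter ones are of a design whose probes can also match other transcripts, so the 3 are not independent of each other or of the related beta-like genes. Across the 3 the lowest signal, on KO 548, stood at the 37.9th percentile of its array. For the dimmest probe set, every KO value lay under the median of its own array.

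Hbb-bh1, the other embryonic beta-like chain, was also lower in KO on each of its 3 probe sets, with a wider spread. The brightest gave 6.32, 5.39 and 6.61 on KO arrays 493, 548 and 551, against 7.49, 6.72 and 6.87 on WT arrays 497, 504 and 550. The groups did not overlap, but KO 551 came within 0.11 of WT 504. The difference was -0.92 ± 0.35 (95% interval -1.74 to -0.10, limma adjusted p = 0.217). The second brightest differed by -0.65 ± 0.31 (limma adjusted p = 0.298) and the dimmest by -1.03 ± 0.38 (limma adjusted p = 0.207). On the dimmest KO 548, at 3.93, was below the 25th percentile of its array, 4.30. Without KO 548 the differences were -0.56, -0.33 and -0.64, from the brightest probe set to the dimmest. WT 497 held the highest Hbb-bh1 signal and the lowest WT Hbb-y signal, so the 2 genes did not follow each other across the WT mice. Within arrays, Hbb-y minus Hbb-bh1 overlapped between the groups (-0.32, 0.19 and -0.28 in KO, against -0.59, 0.88 and 0.39 in WT).

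Hba-x, the embryonic zeta chain, was read by 1 probe set. Its values were 6.16, 6.28 and 6.69 on the KO arrays, against 6.08, 6.02 and 5.85 on the WT arrays. Every KO array lay above every WT array, by at least 0.08. The difference was 0.39 ± 0.16 (95% interval 0.01 to 0.78), or 1.31 times the WT signal, with an unadjusted p of 0.0461 and a limma adjusted p of 0.244. Without KO 551 the difference was 0.24 (limma adjusted p = 0.434). On each array Hbb-y (brightest probe set) minus Hba-x was -0.16, -0.70 and -0.36 in KO, against 0.82, 1.58 and 1.41 in WT, a difference of -1.68. As neither gene's own groups overlap and they lie in opposite directions, this difference had to separate the genotypes and is given without a test.

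**Figure D1:**
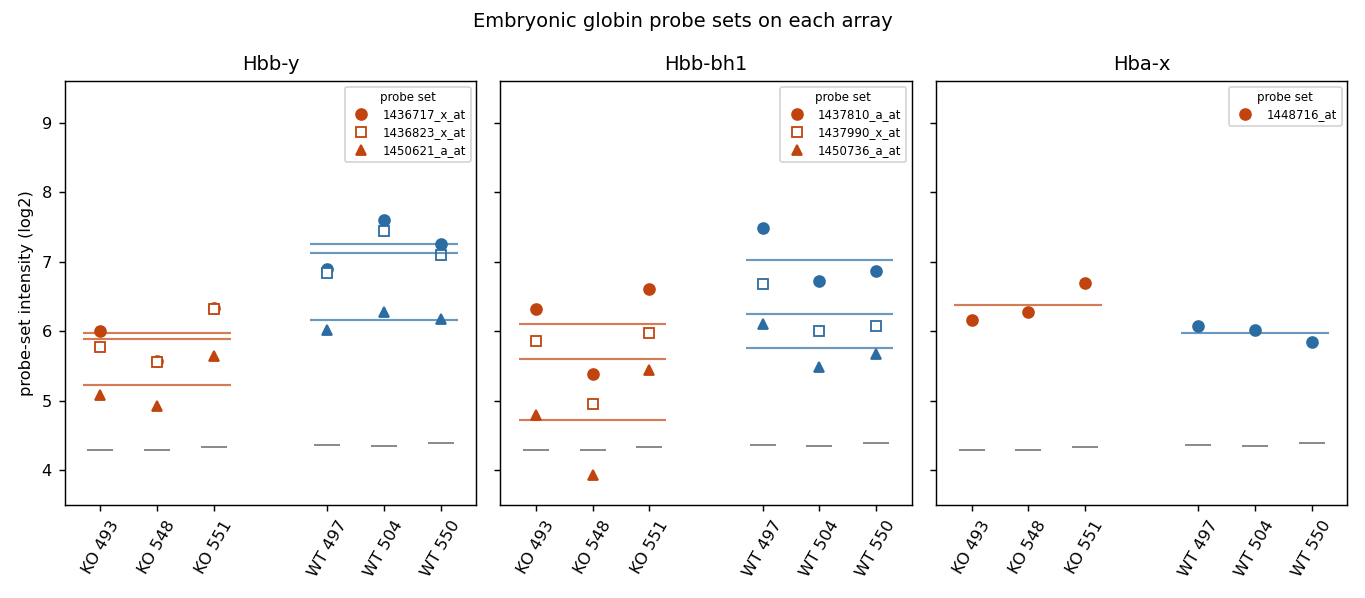
Probe-set intensity (log2, vertical axis) of the embryonic globins Hbb-y, Hbb-bh1 and Hba-x on each KO array (orange) and WT array (blue). Marker shapes stand for probe sets, horizontal lines for group means and grey dashes for the 25th percentile of each array; Hbb-y and Hbb-bh1 points lie lower on KO arrays for each probe set, and Hba-x points lie higher.

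The 4 adult globin probe sets shared by several genes differed by -0.09 to 0.02 and the 2 of Hbb-b2 alone by -0.14 and -0.31, and none of the 6 was called. The probe set shared by the 4 adult beta-globin names read 13.56, 13.56 and 13.52 in KO, against 13.55, 13.59 and 13.60 in WT. The groups overlapped, and the difference was -0.03 ± 0.09 (95% interval -0.25 to 0.19, limma adjusted p = 0.874). It sat 0.42 to 1.06 below the highest value of its array, and the interval is that of the signal, since saturation was not tested. Hbb-b1 had no other probe set. The names Hbb-b1 and Hbb-b2 belong to the diffuse beta-globin haplotype of inbred mice and Hbb-bs and Hbb-bt to the single one; as the labels give no strain, which of these genes the mice carried is not known here.

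Hbb-b2, the minor adult beta chain of the diffuse haplotype, had 2 probe sets of its own, both lower in KO without overlap. The brighter read 12.50, 12.55 and 12.45 in KO, against 12.60, 12.69 and 12.63 in WT, a difference of -0.14 ± 0.10 (limma adjusted p = 0.459). The dimmer read 7.86, 8.15 and 7.85 in KO, against 8.27, 8.28 and 8.23 in WT, a difference of -0.31 ± 0.12 (95% interval -0.59 to -0.02, limma adjusted p = 0.224). The SDs were 0.05 in KO and 0.05 in WT for the brighter, and 0.17 in KO and 0.03 in WT for the dimmer, and neither was called.

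The alpha-globin probe sets that name Hba-a1 and Hba-a2 together gave differences of 0.02 ± 0.09, -0.09 ± 0.09 and -0.01 ± 0.09 in order of brightness. The brightest read 13.87, 13.81 and 13.86 in KO, against 13.79, 13.84 and 13.86 in WT, within 0.16 to 0.81 of the highest value on its array. Its sign turned under quantile normalization, to -0.03. The second brightest read 13.35, 13.35 and 13.31 in KO, against 13.39, 13.45 and 13.44 in WT, a gap without overlap but with a limma adjusted p of 0.631. The only probe set annotated to Hba-a1 alone was dim: 1.24, 2.19 and 3.12 in KO against 2.69, 3.11 and 3.07 in WT, all in the lowest 6.18% of their arrays. Its difference was -0.77 ± 0.44 (limma adjusted p = 0.373), and -0.30 without KO 493 and -1.24 without KO 551. Hba-a2, which is not among the 10 genes but encodes an adult alpha chain too, had 1 probe set, at 12.31, 12.16 and 12.21 in KO against 12.38, 12.36 and 12.31 in WT (-0.12 ± 0.10, limma adjusted p = 0.525).

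**Figure D2:**
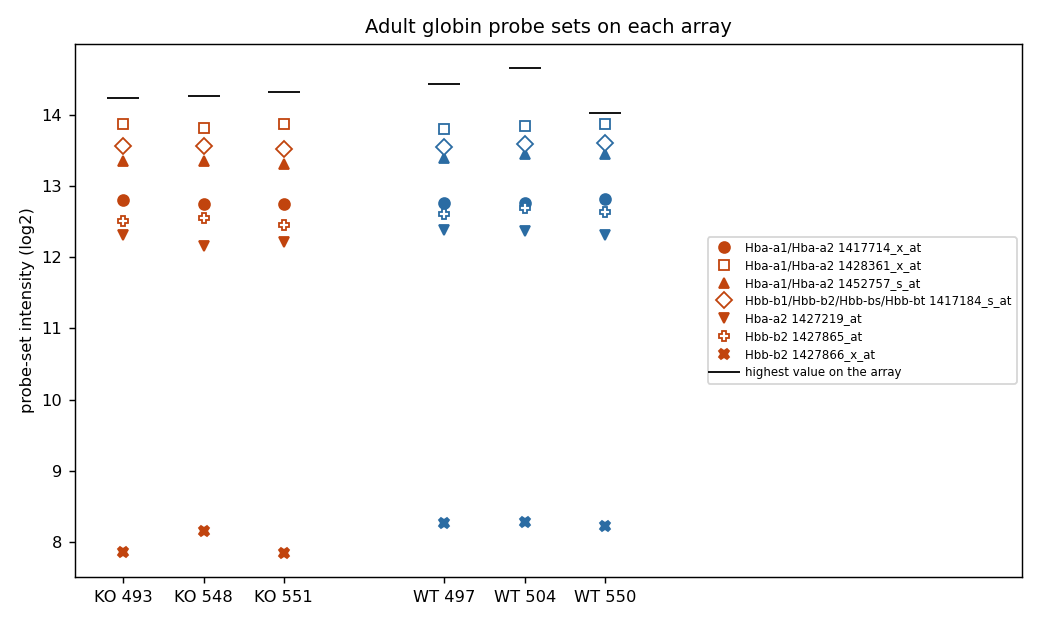
Probe-set intensity (log2, vertical axis) of adult globin probe sets on each KO array (orange) and WT array (blue), with black dashes at the highest value of each array. Shown are the probe sets shared by several genes and those of Hba-a2 and Hbb-b2 alone, without the dim probe set of Hba-a1 alone. The brightest shared Hba-a1/Hba-a2 probe set and the shared beta-globin probe set lie within 0.16 to 1.06 of that top, while the dimmer Hbb-b2 probe set reads 7.85 to 8.15 on KO arrays and 8.23 to 8.28 on WT arrays.

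Relative to the adult beta-globin probe set on the same array, Hbb-y (brightest probe set) was at -7.56, -7.98 and -7.19 in KO, against -6.65, -5.99 and -6.34 in WT. The difference was -1.25 with no overlap, which is nearly that of Hbb-y itself, as the adult signal differed by -0.03. For Hbb-bh1 (brightest probe set) the same quantity differed by -0.89 without overlap, with KO 551 at -6.91 and WT 504 at -6.87. This too is nearly the difference of the gene itself, -0.92. For Hba-x against the brightest shared alpha-globin probe set the difference was 0.38 with overlapping groups (exact two-sided permutation p = 0.2, where 3 against 3 cannot go below 0.1).

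Among the switching regulators, the KO means of all 3 Myb and all 4 Sox6 probe sets were lower and those of Bcl11a lay on both sides of WT, but no probe set passed the test. Myb encodes the transcription factor of erythroid progenitors whose lowered activity raises fetal globin in humans. The dimmest of its 3 probe sets read 8.88, 8.95 and 9.14 on KO arrays 493, 548 and 551, against 9.57, 9.77 and 9.83 on WT arrays 497, 504 and 550. All KO arrays lay at least 0.43 below all WT arrays. The difference was -0.73 ± 0.12 (95% interval -1.03 to -0.44), or 0.601 times the WT signal, with an unadjusted p of 0.000654 and a limma adjusted p of 0.0697. This was the smallest p among the 28 probe sets.

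The other Myb probe sets gave a smaller difference in the same direction. The brightest read 11.68, 11.64 and 11.73 in KO, against 11.89, 12.02 and 12.04 in WT (-0.30 ± 0.10, limma adjusted p = 0.183). The remaining one read 11.26, 11.24 and 11.30 in KO, against 11.46, 11.58 and 11.60 in WT (-0.28 ± 0.10, limma adjusted p = 0.195). The size of the Myb difference thus depends on the probe set, from 0.601 to 0.824 times WT, and its sign does not. Of the 6 early progenitor markers 5 had lower KO means and 1 a higher one. Cd34, a progenitor surface protein, was at 6.96 in KO against 7.78 in WT (-0.83 ± 0.17, limma adjusted p = 0.0954), and Kit, the stem cell factor receptor, at 7.43 against 7.94 (-0.51 ± 0.26, limma adjusted p = 0.334). Hoxa9, a homeobox factor of early progenitors, was at 6.79 in KO against 6.16 in WT (0.63 ± 0.21, limma adjusted p = 0.175), with every KO array above every WT array; these 3 were picked after their values were seen. Their part in the Myb difference was not tested.

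Sox6, a partner of BCL11A in silencing embryonic beta-like genes, had 4 probe sets with differences of -0.27 to -0.14. On 3 of them the groups did not overlap. The third by brightness read 10.16, 10.22 and 10.14 in KO, against 10.36, 10.39 and 10.57 in WT (-0.27 ± 0.11, unadjusted p = 0.0402, limma adjusted p = 0.231). The dimmest read 9.45, 9.14 and 9.18 in KO, against 9.65, 9.46 and 9.48 in WT (-0.27 ± 0.13, limma adjusted p = 0.288), where KO 493 came within 0.01 of WT 504. The 2 brightest differed by -0.14 each (limma adjusted p = 0.470 and 0.532). A direction lower in KO is also that of 56.4% of all probe sets.

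Bcl11a, the main repressor of the embryonic and fetal beta-like genes, had 7 probe sets with differences of -0.06 to 0.11, 5 above and 2 below 0. The groups overlapped on all 7. The one with the narrowest interval, also the brightest, read 10.62, 10.57 and 10.54 in KO, against 10.48, 10.46 and 10.59 in WT, a difference of 0.07 ± 0.10 (95% interval -0.17 to 0.30, limma adjusted p = 0.749). The one with the widest interval, the fourth by brightness, read 8.10, 8.65 and 8.29 in KO, against 8.11, 8.08 and 8.52 in WT, a difference of 0.11 ± 0.19 (interval -0.34 to 0.56). On the array-wide scale the intervals leave room for a change of up to 0.56 upward and 0.48 downward (the second brightest, -0.48 to 0.36). Under quantile and cyclic loess normalization the difference of the second dimmest, -0.04, became 0.07 and 0.05. B cells also use Bcl11a, and the levels of B lineage markers are given above. The share of B cells in the Bcl11a signal was not tested.

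**Figure D3:**
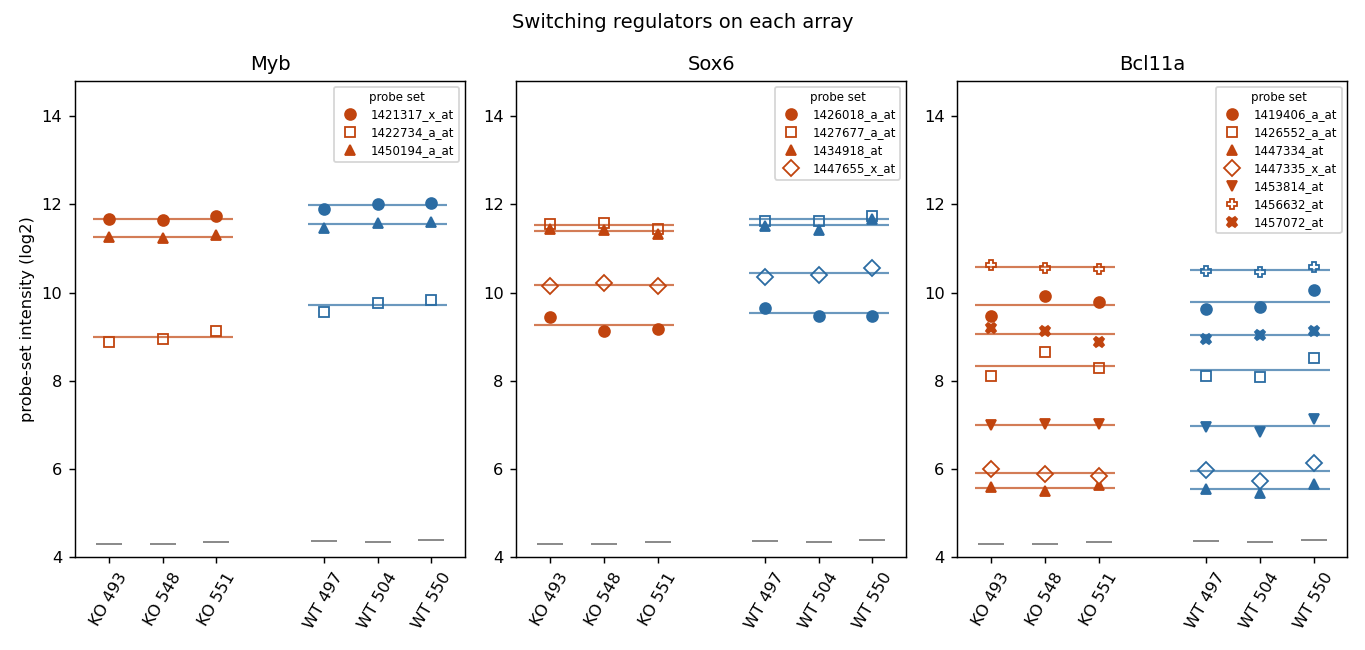
Probe-set intensity (log2, vertical axis) of Myb, Sox6 and Bcl11a on each KO array (orange) and WT array (blue), with horizontal lines at group means and grey dashes at the 25th percentile of each array. The 3 Myb probe sets are lower on all KO arrays, by the most in the dimmest of them, and the 7 Bcl11a probe sets overlap between the genotypes.

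**Figure D4:**
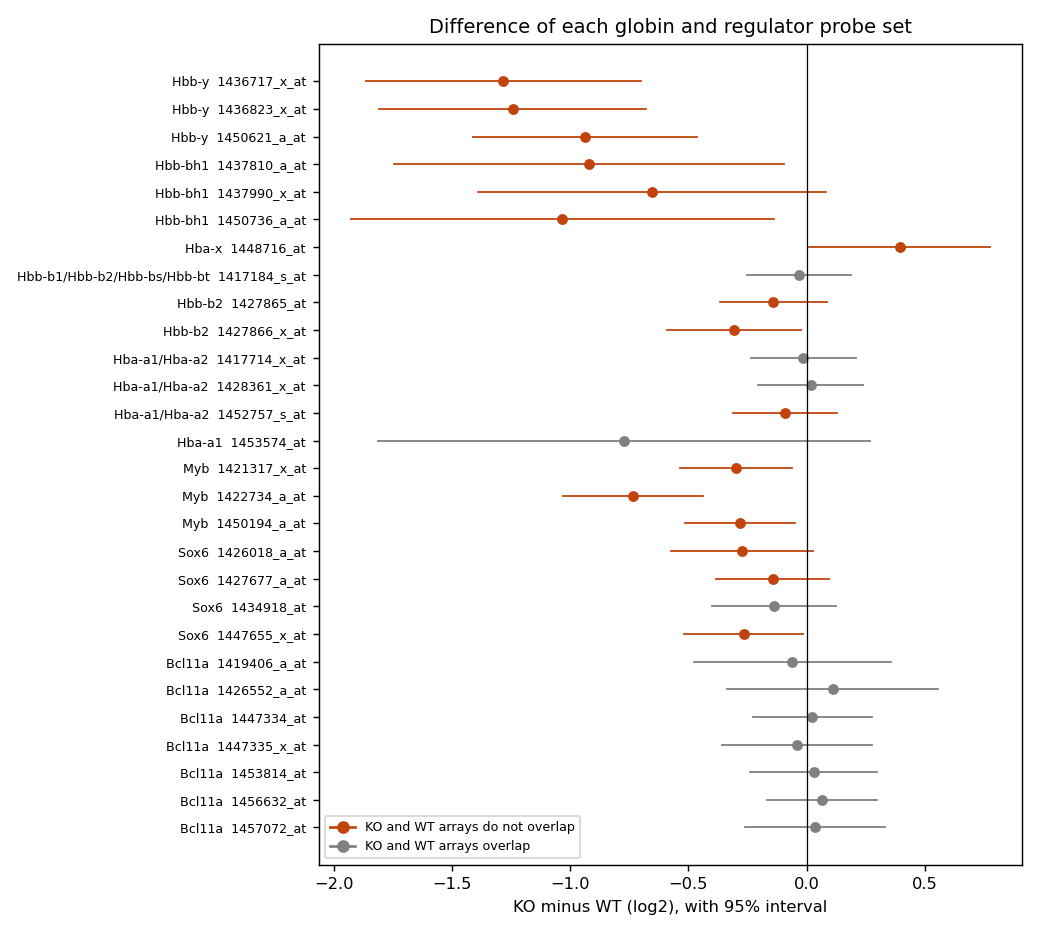
KO minus WT difference (log2, horizontal axis) of each of the 28 probe sets, with limma's 95% interval as a bar; orange marks probe sets whose KO and WT arrays do not overlap, grey the others. Hbb-y, Hbb-bh1 and Myb probe sets lie left of 0, Hba-x lies right of it, and Bcl11a and the shared adult globin probe sets lie about 0.

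The settings of the test decided whether Hbb-y and Myb were called. With an intensity trend and a robust prior limma called 6 of the 28, the 3 probe sets of Hbb-y (adjusted p = 0.0227, 0.0228 and 0.0353) and the 3 of Myb (adjusted p = 0.0251, 0.0140 and 0.0379), all lower in KO. That fit called 3.53% of all probe sets. When the test was limited to probe sets above the array median on at least 3 arrays, limma called 3 of the 25 that passed, which were the 2 brighter ones of Hbb-y (adjusted p = 0.0435 and 0.0433) and the dimmest of Myb (adjusted p = 0.0299), where 4.87% of the tested probe sets were called. Those 2 of Hbb-y lay above the median on 3 WT arrays and on 2 KO arrays, so they passed through the group in which they are higher. No probe set of the other members was called in any of these fits. With any 1 array left out, 0 of the 28 were called, and the lowest adjusted p of an Hbb-y or Myb probe set was 0.0991.

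Beyond these members, other globin genes and 4 lists of globin regulators held 67 distinct measured genes, each read by its brightest probe set annotated to it alone. Limma called none of them, and 10 had an unadjusted p under 0.05, 6 higher and 4 lower in KO. Over all 18193 genes, 0.385% were called and 21.0% had such a p, 8.34% higher and 12.7% lower. A lower KO mean was found for 55.7% of all genes, and every KO array lay below every WT array for 16.2% and above for 12.5%. The fit with an intensity trend called 3 of the 67, Klf3, Kat2b and Bach1, and 4.42% of all genes. The median difference of the 67 was -0.01 and that of all genes -0.04.

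None of 4 other globin genes measured passed the test, with a median of -0.12, and 1 reached the unadjusted threshold. That gene was Cygb, cytoglobin, a globin outside haemoglobin, at 6.34, 6.26 and 6.23 in KO against 6.58, 6.64 and 6.61 in WT (-0.33 ± 0.10, limma adjusted p = 0.148). Mb, the myoglobin of muscle, was at 5.0 in KO and 5.12 in WT (-0.12 ± 0.12). Cygb lay lower on all KO arrays without passing the test, and its difference was -0.22 with quantile and -0.25 with cyclic loess normalization.

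The list of activators of globin genes, which also holds the corepressor Cbfa2t3, had a median of -0.06. Of its 18 genes 17 were measured and 0 called, with 1 higher and 1 lower at an unadjusted p under 0.05. Klf1, the activator of adult beta-globin, was at 12.45 in KO and 12.55 in WT (-0.10 ± 0.11, limma adjusted p = 0.675). Gata1, the master erythroid factor, was at 12.45 and 12.44 (0.01 ± 0.09), with a 95% interval of -0.22 to 0.24. Kat2b, a histone acetyltransferase, was lower (-0.31 ± 0.09, limma adjusted p = 0.156) and Brd3, a bromodomain protein that binds acetylated GATA1, was higher (0.33 ± 0.12, limma adjusted p = 0.203), but the probe sets of Kat2b ran from -0.31 to -0.03 and those of Brd3 from -0.03 to 0.33. Cbfa2t3, the corepressor ETO2, was at 10.93, 11.04 and 10.99 in KO against 10.53, 9.45 and 10.81 in WT (0.72 ± 0.33, limma adjusted p = 0.284). Without WT 504 its difference was 0.32, and its 4 probe sets ran from 0.26 to 0.84.

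Repressors and switching factors (17 of 18 measured, 0 called, 1 higher and 1 lower at an unadjusted p under 0.05) had a median of -0.11. Klf3, a repressor of the Kruppel-like family that KLF1 activates, was at 11.29, 11.22 and 11.26 in KO against 11.66, 11.63 and 11.69 in WT (-0.40 ± 0.09, limma adjusted p = 0.111). All 7 of its probe sets were lower, by differences of -0.77 to -0.24. Bach1, a haem-sensitive repressor of globin and haem oxygenase genes, was at 11.58, 11.61 and 11.59 in KO against 11.31, 11.2 and 11.33 in WT (0.31 ± 0.10, limma adjusted p = 0.163), while a second probe set of Bach1 differed by 0.48. Klf3 and Bach1 thus stood apart from WT on every array in opposite directions, without being called. Zbtb7a, which encodes LRF, a second repressor of fetal globin, was at 9.38 in KO and 9.52 in WT (-0.14 ± 0.16), and its 3 probe sets ran from -0.24 to -0.03. Lin28a, an RNA-binding protein of early development, was at 6.94 and 7.32 (-0.38 ± 0.18, limma adjusted p = 0.296), or a difference of -0.20 without WT 497.

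Corepressor and chromatin proteins that act at globin genes (23 of 24 measured, 0 called) had a median of 0.12, with 4 higher and 1 lower at an unadjusted p under 0.05. Prmt5, an arginine methyltransferase, was at 8.74, 8.86 and 8.67 in KO against 8.11, 8.59 and 8.29 in WT (0.43 ± 0.15, limma adjusted p = 0.192). Mta3, a subunit of the NuRD complex with which BCL11A associates, was at 9.32 in KO and 9.03 in WT (0.29 ± 0.10, limma adjusted p = 0.196), and its 3 probe sets ran from -0.07 to 0.29. Dnmt3a, a DNA methyltransferase, was at 8.67 and 9.06 (-0.39 ± 0.16, limma adjusted p = 0.237), and its 5 probe sets ran from -0.39 to -0.05. Genes of globin protein control and haem supply (7 of 7 measured, 0 called) had a median of -0.05, with 1 higher and 0 lower at an unadjusted p under 0.05. The higher one was Bach1, which is also in this list and is given above. Alas2, the first enzyme of haem synthesis in red cells, was at 12.61 in KO and 12.74 in WT (-0.13 ± 0.10), and Slc25a38, the mitochondrial glycine carrier, at 10.54 and 10.78 (-0.23 ± 0.12, limma adjusted p = 0.347).

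**Figure D5:**
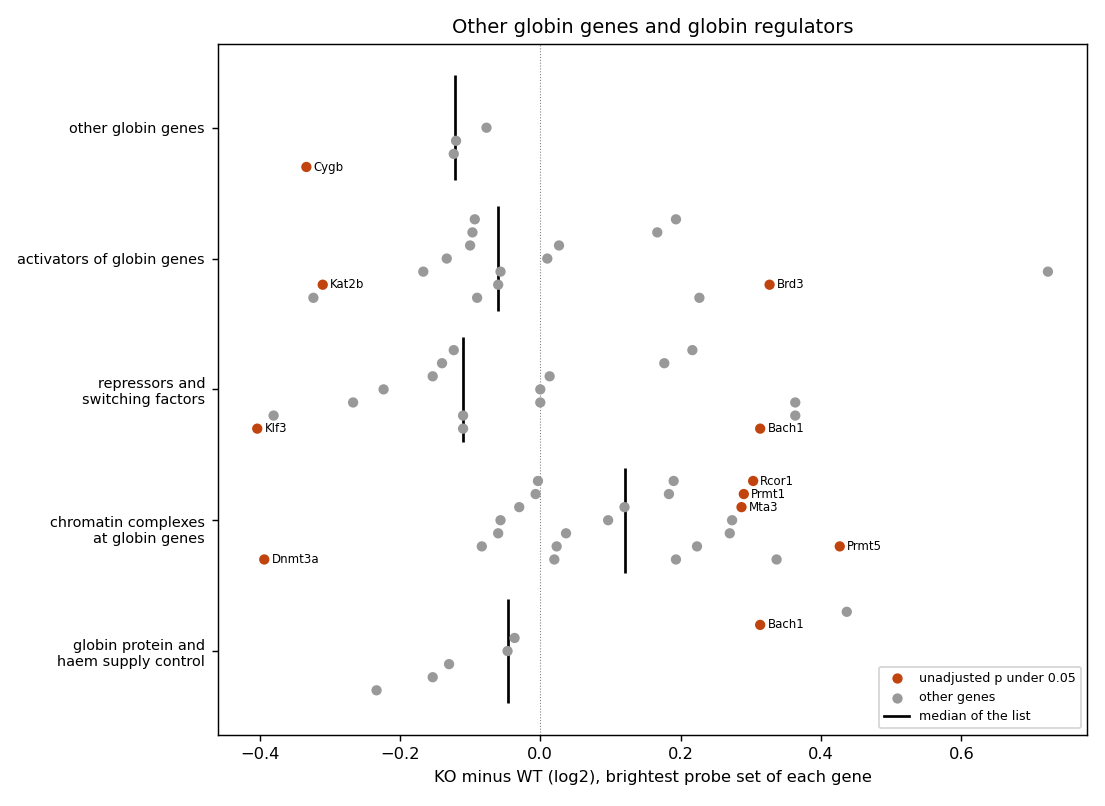
KO minus WT difference (log2, horizontal axis) of the brightest probe set of each gene in the list of other globin genes and the 4 lists of globin regulators; orange points have an unadjusted p under 0.05 and are named, grey points are the other genes, and black lines are list medians. Medians lie between -0.12 and 0.12, and no gene was called.

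The 4 genes whose values over the 6 arrays were most like those of Hbb-y (brightest probe set) were Taco1os, Myo1d, Mip and Cdo1, among 10745 genes brighter than the median probe set. Likeness was the root mean square difference between values centred on each probe set's mean, and was 0.238, 0.241, 0.261 and 0.263 for these genes. Myo1d, an unconventional myosin on chromosome 11, was at 8.20, 8.15 and 8.23 in KO against 8.82, 9.50 and 9.27 in WT (-1.0 ± 0.18, limma adjusted p = 0.0744), with WT 504 highest as for Hbb-y. Mip, a lens aquaporin, differed by -1.26 ± 0.24 (limma adjusted p = 0.0834) and Taco1os by -0.85 ± 0.23 (limma adjusted p = 0.133). Cdo1, cysteine dioxygenase, differed by -0.93 ± 0.12 (limma adjusted p = 0.0435) and alone of the 4 was called. It read 5.33, 5.23 and 5.46 in KO against 6.13, 6.40 and 6.29 in WT. All 3 KO values lay under the median of their arrays, so Cdo1 passed the limit on brightness through its WT arrays. Mip lay above the median on 1 KO array and on 3 WT arrays. The differences of the 4 genes are a description, since they were chosen on the same arrays for their likeness to Hbb-y.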

How the data were processed

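Bone marrow erythroblasts of 3 KO and 3 WT mice were measured on 1 array each, grouped by their titles. The deposited intensity values are probe-set summaries on a linear scale that the authors made with RMA, per the submitters' processing notes; software and version are not given in the sources used here. RMA normally ends with arrays of 1 distribution, but the deposited medians were 5.62 to 5.68 in KO and 5.73 to 5.78 in WT, so how far a general shift was removed is not known here. Of the deposited intensity values, 100% were powers of 2 with 2-decimal exponents, lowest value 1, and were returned to that log2 exponent without further normalization. The table held 45101 probe sets; 64 controls were left out. Names came from GEO's platform annotation, updated through gene identifiers to RefSeq symbols (99.4% of single-gene probe sets matched).

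KO minus WT was tested with limma 3.58.1 in R 4.3.3 (lmFit, eBayes, no covariate) and checked on simulated data. Dim means a mean under the 25th percentile of the arrays in both genotypes; near the top means within 1 log2 unit of the highest value on every array. Single contrasts within arrays used exact permutation tests. The members, lists and rules were chosen with earlier results of these data known. Named list genes are the 3 with the smallest p per list, any called gene, and Klf1, Gata1, Zbtb7a and Alas2; the 4 genes most like Hbb-y were ranked by root mean square difference, and neighbours were added after member values were seen. Alternatives were an intensity trend with robust prior, quantile and cyclic loess normalization, a filter (above the array median on at least 3 arrays), log2(value + 32), leaving out each array, and the mean of a gene's probe sets. The number of arrays limits precision. Detection calls, scan dates and batches were not used here.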

Additional observations from a re-analysis of the deposited data

How the results depend on the processing

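No paired analysis was possible because the KO and WT titles share no replicate number. The count of called probe sets over the whole array, 160, was 1592 with an intensity trend and robust prior, 1113 with the filter at the array median, 1284 with log2(value + 32) and 8 to 23 with 1 array left out. Among the 28 globin and regulator probe sets, 0 called became 6, 3 and 3 with the trend, the filter and the offset in turn, and among the 67 other genes 0 became 3, 1 and 3. The 3 called with log2(value + 32) were the 2 brighter ones of Hbb-y (-0.96 and -0.91) and the dimmest of Myb (-0.70). Quantile and cyclic loess normalization, each array left out, and the mean of a gene's probe sets called none of the members. The cause of these changes was not tested. Over 305 pairs of member probe set and setting, 279 kept direction and side of the threshold, 12 passed it and 14 turned sign, all 14 on probe sets of Bcl11a or shared by Hba-a1 and Hba-a2. Signs turned under quantile normalization for the second dimmest Bcl11a probe set (0.0678) and the brightest shared alpha-globin one (-0.0272), and under cyclic loess for the same Bcl11a probe set (0.0507) and Gata1 (-0.00115). With 1 array left out, the 6 Bcl11a ranges that crossed 0 were, from the second brightest down, -0.16 to 0.08, -0.0283 to 0.13, -0.0417 to 0.25, -0.0417 to 0.11, -0.15 to 0.0567 and -0.0233 to 0.0767. The dimmest shared alpha-globin probe set ran from -0.03 to 0.00667, the brightest from -0.00333 to 0.035, and Gata1 from -0.0167 to 0.0317. Calls split into 157 higher and 77 lower with quantile normalization, 109 and 73 with cyclic loess, and 83 and 77 without either. The median of all probe sets, -0.04, became 0.02 with quantile and -0.01 with cyclic loess normalization. Dim signals limit Hba-a1, and a signal near the top limits the brightest alpha-globin probe set. The shared beta-globin probe set lay 0.42 to 1.06 below the top of its array. The second brightest shared alpha-globin one lay 0.58 to 1.2 below it. Both fell outside the rule for near the top, but they are limited in the same way, since saturation was not tested.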

Other observations

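The measured genes next to the globin clusters, Myb and Bcl11a were read from the same limma fit, 3 on each side by RefSeq gene order. Of these 24, none was called, 5 had an unadjusted p under 0.05 (21.0% of all genes did) and 10 were dim. Beside the alpha-globin cluster, Nprl3, whose introns hold the alpha-globin enhancers, was at 8.92 in KO and 9.22 in WT (-0.30 ± 0.12, limma adjusted p = 0.241) with no overlap, and Mpg, a DNA glycosylase, at 9.45 and 9.48 (-0.03 ± 0.10). On the other side of that cluster Sh3pxd2b was at 5.19 in KO and 5.51 in WT (-0.32 ± 0.11, limma adjusted p = 0.186), under the median of every array. Ubtd2 was at 5.76 and 6.12 (-0.36 ± 0.10, limma adjusted p = 0.141). Both also had all KO arrays below all WT arrays, as did 16.2% of all genes. The 6 neighbours of the beta-globin cluster were olfactory receptor genes and all dim, so nothing beside Hbb-y and Hbb-bh1 can be read there.

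Hbs1l, the translation factor gene next to Myb, was at 10.65 in KO and 10.62 in WT (0.04 ± 0.12, limma adjusted p = 0.899), and its 3 probe sets ran from -0.08 to 0.04. Ahi1, on the other side, was at 10.66 and 10.70 (-0.04 ± 0.20). Beside Bcl11a, Fancl, a Fanconi anaemia ubiquitin ligase, was at 10.49 in KO and 10.93 in WT (-0.44 ± 0.12, limma adjusted p = 0.140), Rel was at 4.71 and 5.37 (-0.66 ± 0.27, limma adjusted p = 0.246), and Papolg was at 9.51 and 9.31 (0.19 ± 0.12, limma adjusted p = 0.430).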
